A study of Mus musculus with 2 samples.

Results

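The BCL2 family decides whether a cell keeps or loses the integrity of its mitochondria. The survival proteins BCL2, BCL-XL (gene Bcl2l1) and MCL1 hold the pore-forming effectors BAX and BAK (Bak1) in check. BH3-only proteins, among them PUMA (Bbc3), NOXA (Pmaip1), BIM (Bcl2l11), BID and BAD, sense stress and either occupy the survival proteins or activate the effectors directly. Several of these genes, Bax, Bbc3 and Pmaip1 among them, are known transcriptional targets of p53, the factor the study placed between KAI1 and LIF.

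The 10 genes Bcl2, Bcl2l1, Mcl1, Bax, Bak1, Bbc3, Pmaip1, Bcl2l11, Bid and Bad were taken by symbol from 20211 symbols measured. They comprise 3 survival genes, 2 effectors and 5 BH3-only genes, and each stood on a single line of both tables. RNA came from cultured perivascular cells (PCs) of the aorta of C57BL/6 mice, with 1 wild type (WT) library and 1 library of cells lacking Kai1, labelled Kai1 KO and written here Kai1-/-. Kai1 is another name for Cd82, which encodes a tetraspanin of the cell membrane. Both cultures were grown in DMEM with fetal bovine serum, at a percentage that differs between the labels and the paper. No treatment of the cultures was named. The study used adult mice of either sex, and the number of animals behind each culture was not given in the sources used here. The authors expressed each gene as RPKM, a read count scaled to transcript length and to the mapped reads of the library, so that levels of different genes can be set side by side. With 1 library per genotype there is no replicate check and no test, and every difference below compares these 2 libraries, not the genotypes.

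Cd82 itself stood at 12.8 RPKM in WT PCs against 2.62 in Kai1-/- PCs, 20.5% of WT. No read totals came with the values, but their steps corresponded to about 29500000 reads in WT and 26700000 in Kai1-/- PCs. Read numbers and intervals below follow from these estimates, and the 95% intervals cover counting error only. Of 10 markers of mural cells, Acta2 reached 3823 and 2580 RPKM in WT and Kai1-/- PCs, Tagln 633 and 307, Cnn1 120 and 49.2, Pdgfrb 44.7 and 31.6, and Cspg4 15.4 and 8.27. The other 5 were low, with Mcam at 4.90 and 0.264, Myh11 at 2.96 and 0.346, Des at 1.23 and 0.250, Notch3 at 1.0 and 0.464 and Rgs5 at 0.0630 and 0.233. The 4 Y-linked genes Ddx3y, Eif2s3y, Kdm5d and Uty were above 0 in WT and listed at 0 in Kai1-/- PCs, so that the sex of the cells and the genotype cannot be told apart.

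The proteins of the family share the BH3 core, the short helix by which they bind one another, and it is what unites the survival, effector and BH3-only genes compared here. Its coding sequence was sought in 9 of the 10 genes and located in each, and Pmaip1 was left out of the search. The core was taken as 8 codons of the annotated transcripts that begin with a leucine codon and hold an aspartate codon at place 6. The search also limited the amino acids allowed just before the aspartate and at the places after it. Each sequence below is given 5′ to 3′ on the coding strand, with the leucine and aspartate codons in capitals.
Bcl2: CTCcgccgggctgggGATgacttc
Bcl2l1: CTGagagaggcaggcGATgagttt
Mcl1: CTGcggcgcgtgggcGACggcgtg
Bax: CTCcggcgaattggaGATgaactg
Bak1: CTTgctctcatcggaGATgatatt
Bbc3: CTGcggcggatggcgGACgacctc
Bcl2l11: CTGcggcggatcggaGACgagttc
Bid: CTCgcccaaataggcGATgagatg
Bad: CTCcgaaggatgagcGATgagttt

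On the mouse build NCBIM37, the build the authors aligned to as mm9, these lie at chr1:108609155-108609178 in exon 1 of Bcl2, chr2:152655436-152655459 in exon 2 of Bcl2l1 and chr3:95463359-95463382 in exon 2 of Mcl1. The effector cores lie at chr7:52721370-52721393 in exon 3 of Bax and chr17:27159479-27159502 in exon 4 of Bak1. Those of the BH3-only genes lie at chr7:16899122-16899145 in exon 3 of Bbc3, chr2:127972886-127972909 in exon 3 of Bcl2l11, chr6:120847310-120847333 in exon 4 of Bid and chr19:7025282-7025305 in exon 3 of Bad. All are coding. The genes of Bcl2, Bcl2l1, Bax, Bak1 and Bid are on the minus strand and the others on the plus strand. Over the 36 pairs of genes, 11 to 19 of the 24 bases were identical, with a median of 14. The most alike were Bbc3 and Bcl2l11, at 19 bases. Of the 6 bases shared by all 9 genes, 4 lie in the leucine and aspartate codons that the search fixed. The others lie in codons after the aspartate, where the search allowed only a few amino acids. The shared bases and the identity of pairs thus partly follow from the search, and do not measure conservation. The core was present in 7 of the 9 coding transcripts annotated for Bcl2l1, 4 of 5 for Bcl2l11, 3 of 5 for Bak1 and for Bad, 2 of 3 for Bid and 1 of 2 for Bbc3. One RPKM value per gene does not separate such transcripts.

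Most of the family stood at similar levels in both libraries, and the clear exceptions were 2 BH3-only genes. Pmaip1 and Bid were more than 2-fold lower in Kai1-/- PCs, and none of the 10 genes was more than 2-fold higher. The remaining 3 BH3-only genes, Bbc3, Bcl2l11 and Bad, had higher values in Kai1-/- PCs by 1.47 to 1.82 times. The 2-fold count used log2((RPKM + 0.1)/(RPKM + 0.1)) of Kai1-/- to WT, called the log2 ratio below, among genes whose mean over the libraries was 1 RPKM or more. Of the 10 genes, 9 passed this filter, and Bcl2l11 missed it at a mean of 0.968. Among all 10068 genes that passed, 7.81% lay past the 2-fold line on the lower side in Kai1-/- PCs and 7.98% on the higher side. The median log2 ratio of the 9 genes was 0.11, against 0.082 over all genes that passed. In an RNA pool, fewer cells expressing a gene and less RNA per cell cannot be told apart.

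**Figure D1:**
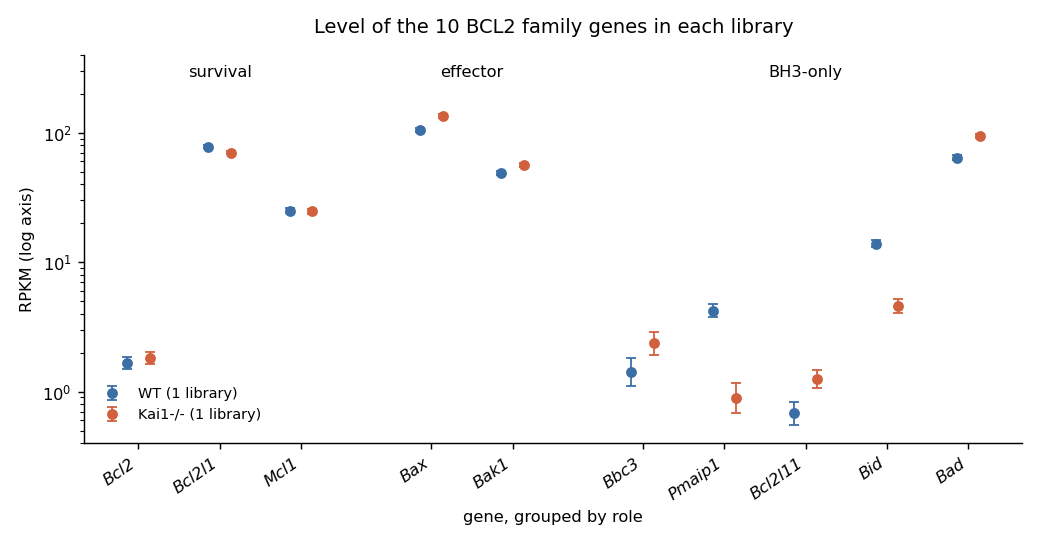
RPKM of the 10 genes (log axis) in the WT and the Kai1-/- library, grouped by role, with bars for the 95% counting interval from estimated reads. Levels range from 0.686 RPKM for Bcl2l11 to 134 for Bax; the intervals of the libraries are far apart for Pmaip1 and Bid and overlap for Bcl2 and Mcl1.

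Among the survival genes, Bcl2l1 was the main transcript in both libraries. Its product BCL-XL protects many adherent cell types. Bcl2l1 was at 77.8 RPKM in WT and 70.1 in Kai1-/- PCs, 1.11 times lower (95% interval 1.07 to 1.16), from about 5098 and 4146 reads. Mcl1 encodes a survival protein with rapid turnover, the main partner of NOXA. Its RPKM was 25.0 in WT and 24.7 in Kai1-/- PCs, a ratio of 0.989 (0.933 to 1.05). Bcl2, the founding member of the family, was far less abundant, with 1.68 RPKM in WT and 1.81 in Kai1-/- PCs, a ratio of 1.08 (0.927 to 1.26). For Bcl2 and Mcl1 the intervals thus included 1, so that their differences as deposited lay within counting error. By RPKM, Bcl2l1 stood 46.4 times above Bcl2 in WT and 38.7 times in Kai1-/- PCs. Of all 3 survival genes summed, Bcl2l1 made up 74.5% and 72.6%, Mcl1 23.9% and 25.6%, and Bcl2 1.61% and 1.87%. The direction of the small difference of Bcl2 depended on the scaling, with a log2 ratio of 0.11 as deposited and -0.36 with the libraries scaled to Gapdh. Mcl1 was below 0 in each scaling, from -0.015 as deposited to -0.51 scaled to Gapdh, and was above 0, at 0.014, with the trend on transcript length removed.

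The effectors were the most abundant group. BAX and BAK form the pores in the outer mitochondrial membrane through which cytochrome c escapes. Bax was at 105 RPKM in WT and 134 in Kai1-/- PCs, 1.27 times higher (1.21 to 1.34), and held the highest value of the family in both. Bak1 had 48.5 and 56.0, 1.15 times higher (1.10 to 1.21). Both differences were small beside the spread of all genes: 33.1% of the genes that passed the filter had a higher log2 ratio than Bax, and 42.0% a higher one than Bak1. Scaled to Gapdh, both turned lower, with log2 ratios of -0.15 for Bax and -0.29 for Bak1, and that scaling moved the median of all genes from 0.082 to -0.41. Bax to Bak1 was 2.16 to 1 in WT and 2.39 to 1 in Kai1-/- PCs. Bax is also the shortest of the 10 genes, with a longest annotated transcript of 1049 bases. Short transcripts had higher log2 ratios in general, with a median of 0.26 in the group of shortest genes and -0.038 in that of the longest when genes were split by length into 5 groups of equal size, and with the trend on length removed Bax was at 0.13.

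Pmaip1 had the largest difference of the family. It lies at chr18:66618258-66625204 on the plus strand and encodes NOXA, a BH3-only protein that binds MCL1. Its RPKM was 4.21 in WT and 0.900 in Kai1-/- PCs, 21.4% of WT, or 4.68 times lower (3.53 to 6.29). These values correspond to about 304 and 59 reads. Its log2 ratio was -2.11, and 1.99% of the genes that passed the filter had a lower one. From rank 7 of the 10 genes in WT, Pmaip1 went to rank 10 in Kai1-/- PCs, where its interval overlapped that of Bcl2l11. With a pseudocount of 1 RPKM in place of 0.1 the log2 ratio was -1.46.

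Bid lies at chr6:120841948-120866871 on the minus strand and encodes the BH3-only protein that caspase-8 cleaves to carry a death receptor signal to the mitochondria. Its RPKM was 13.9 in WT and 4.58 in Kai1-/- PCs, 33.1% of WT, or 3.02 times lower (2.64 to 3.48), from about 907 and 271 reads. The log2 ratio was -1.58, with 3.67% of genes lower. As deposited, the death receptor pathway held no gene past 2-fold among those that passed the filter. Of these, 5 had a log2 ratio above 0 and 5 below. Casp8, the gene of caspase-8, had 4.34 RPKM in WT and 2.66 in Kai1-/- PCs, 1.63 times lower (1.35 to 1.98). The exons of Bid overlap those of Bcl2l13, on the opposite strand, over 628 bases. Bcl2l13 went the other way, from 3.54 RPKM in WT to 5.42 in Kai1-/- PCs. Whether the library kept the strand was not given in the sources used here, so that reads in the overlap cannot be told apart.

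Bad was the most abundant BH3-only gene. Its product binds BCL-XL and BCL2 and is held inactive by 14-3-3 proteins once phosphorylated. Bad was at 64.1 RPKM in WT and 94.5 in Kai1-/- PCs, 1.47 times higher (1.40 to 1.56). Of the genes that passed the filter, 21.9% had a higher log2 ratio than the 0.56 of Bad. Scaled to Gapdh the log2 ratio was 0.059, and with the trend on transcript length removed it was 0.42. Exons of Bad share 517 bases with Gpr137 on the opposite strand, which had 41.2 and 36.3 RPKM, and the same limit on strand applies. It also applies to Bak1, which shares 357 exon bases with Ggnbp1, at 4.13 and 1.84 RPKM, and to Bcl2, which shares 558 with D630008O14Rik, a transcript not used here.

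Bbc3 and Bcl2l11 were low in both libraries. Bbc3 encodes PUMA, which binds all survival proteins, and had 1.43 RPKM in WT and 2.36 in Kai1-/- PCs, 1.66 times higher (1.21 to 2.28), from about 68 and 102 reads. Bcl2l11 encodes BIM, which binds them likewise and is made as several splice forms, and had 0.686 and 1.25 RPKM, 1.82 times higher (1.41 to 2.37), from about 98 and 161 reads. Neither interval included 1, and both reached past 2-fold, so that counting error leaves the size of these differences wide. Their log2 ratios of 0.69 and 0.78 were exceeded by 16.3% and 13.4% of the genes that passed the filter. The genes named at the start as p53 targets thus did not share a direction. Pmaip1 was lower and Bax and Bbc3 were higher as deposited, though Bax was lower when scaled to Gapdh or to the same RPKM sum. The part of p53 in these values was not tested.

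**Figure D2:**
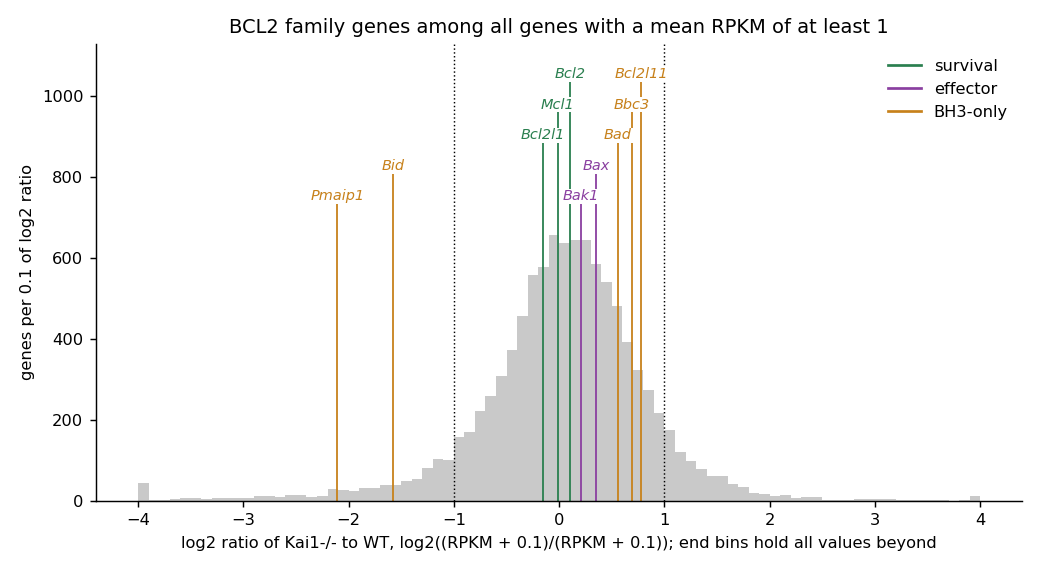
Histogram of the log2 ratio of Kai1-/- to WT for the 10068 genes averaging 1 RPKM or more (grey, genes per bin), with the 10 family members as coloured lines and the 2-fold lines dotted. Pmaip1 at -2.11 and Bid at -1.58 lie in the left tail, and the other 8 lie between the 2-fold lines; Bcl2l11 is drawn although its mean RPKM was 0.968.

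Ratios of genes within a library do not depend on how the libraries are scaled. The RPKM of Bcl2l1 was 0.742 times that of Bax in WT and 0.525 times in Kai1-/- PCs, 1.42 times lower (1.32 to 1.51). Mcl1 to Bax went from 0.238 to 0.185. They do depend on transcript length: with the length trend removed, a setting for these ratios chosen after seeing the data, Bcl2l1 to Bax was 1.25 times lower and Mcl1 to Bax 1.08 times lower in Kai1-/- PCs. Bad stood below Bcl2l1 in WT, at 0.823 times its level, and above it in Kai1-/- PCs, at 1.35 times, a change of 1.64 times (1.53 to 1.75). With the length trend removed, this change was 1.53 times. Of the summed RPKM of the 10 genes, 342 in WT and 390 in Kai1-/- PCs, the survival genes held 30.5% in WT and 24.8% in Kai1-/- PCs. The effectors held 44.8% and 48.6%, and the BH3-only genes 24.6% and 26.6%. For the survival genes the counting error was ± 0.666 and ± 0.603 percentage points. The sum of survival genes was 0.681 times that of the effectors in WT and 0.510 times in Kai1-/- PCs, 1.34 times lower (1.27 to 1.41), or 1.21 times lower with the length trend removed. These are levels of mRNA, and the amounts of protein were not measured here.

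**Figure D3:**
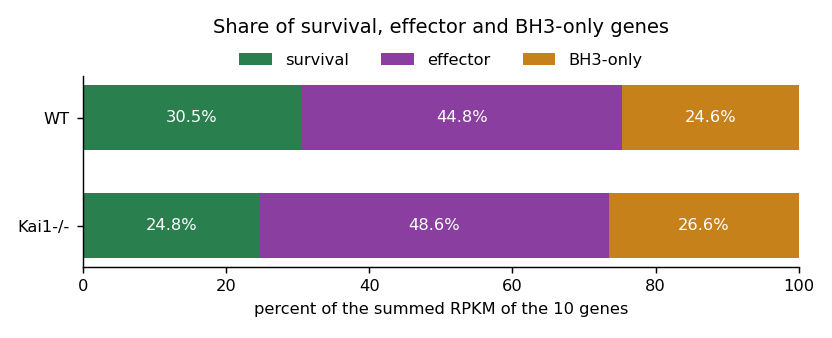
Share of the summed RPKM of the 10 genes held by survival, effector and BH3-only genes (percent, bars from 0) in each library. The survival share is 30.5% in WT and 24.8% in Kai1-/- PCs, and the effector share 44.8% and 48.6%.

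The libraries differed more in the makeup of the BH3-only group than in its share. Bad made up 76.0% of its summed RPKM in WT and 91.2% in Kai1-/- PCs. Bid went from 16.5% to 4.43% and Pmaip1 from 5.0% to 0.869%. Bbc3 and Bcl2l11 together stayed minor, with 1.69% and 0.813% in WT and 2.28% and 1.21% in Kai1-/- PCs. Bid to Bad was 0.216 in WT and 0.0485 in Kai1-/- PCs, 4.46 times lower (3.84 to 5.18).

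The order of levels was led in WT by Bax, followed by Bcl2l1, Bad, Bak1, Mcl1, Bid, Pmaip1, Bcl2, Bbc3 and Bcl2l11. In Kai1-/- PCs the order was Bax, Bad, Bcl2l1, Bak1, Mcl1, Bid, Bbc3, Bcl2, Bcl2l11 and Pmaip1. Counting intervals of neighbours overlapped for Bcl2 and Bbc3 in both libraries and for Bcl2l11 and Pmaip1 in Kai1-/- PCs. Bax was higher than 91.6% of the genes that passed the filter in WT and 92.5% in Kai1-/- PCs. Pmaip1 was higher than 31.8% in WT and 3.11% in Kai1-/- PCs.

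The wider death pathway was read from 7 lists with 89 genes, of which 73 averaged 1 RPKM or more. Of these, 2 were lower by more than 2-fold, 2 were higher by as much and 69 were neither, and their median log2 ratio was -0.011. With 2.74% in each direction, these shares were below those of all genes, 7.81% and 7.98%, for the values as deposited. In the rest of the BCL2 family, 9 of 18 genes passed the filter and 1 was past 2-fold. That was Bcl2l15, a less studied relative, with 2.59 RPKM in WT and 0.629 in Kai1-/- PCs, from about 130 and 29 reads. Bok, an effector-like relative of Bax and Bak1, was the most abundant of them, with 52.6 and 58.9 RPKM, close to the level of Bak1. A further survival gene, Bcl2l2, chosen after its values were seen, had 6.71 RPKM in WT and 4.92 in Kai1-/- PCs. It was 1.36 times lower (1.22 to 1.53), from about 755 and 500 reads. The survival genes Bcl2a1a, Bcl2a1b, Bcl2a1c, Bcl2a1d and Bcl2l10 were listed at 0 in both libraries.

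Many genes of the caspase and apoptosome list act after the pores have opened. Of 13, 12 passed the filter, 0 were lower and 1 was higher by more than 2-fold, with a median log2 ratio of 0.41. The one past 2-fold was Casp2, an initiator caspase, with 1.59 RPKM in WT and 4.91 in Kai1-/- PCs. Htra2, a mitochondrial protease that relieves caspase inhibition, was the most abundant with 156 and 192 RPKM, and its exons overlap those of Loxl3 and Aup1 on the opposite strand. Of 8 inhibitors of apoptosis, 5 passed the filter with a median of 0.53. Birc5, which encodes survivin and also acts in cell division, was the one more than 2-fold higher, with 61.1 RPKM in WT and 157 in Kai1-/- PCs. Its log2 ratio of 1.36 came below the 2-fold line, at 0.86, when scaled to Gapdh. Of 12 cell cycle genes, 11 were more than 2-fold higher as well. Their summed RPKM was 187 in WT and 537 in Kai1-/- PCs, with a median log2 ratio of 1.52. The part of cell division in the value of Birc5 was not tested.

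In the death receptor pathway, 10 of 11 genes passed the filter. As deposited, 0 were past 2-fold in either direction and the median was 0.076. Tnfrsf1a, the TNF receptor, was the most abundant with 123 and 113 RPKM. The 17 channel and binding partner genes, including the 14-3-3 genes that hold BAD, all passed the filter, with 0 past 2-fold and a median of -0.10. Ywhae, a 14-3-3 gene, had the highest mean with 208 and 292 RPKM, though in WT Bag1 was higher, with 247 and 230. Of 18 transcriptional regulators, 16 passed the filter with a median of -0.047, and 1 was past 2-fold. That was Ddit3, which encodes the stress factor CHOP, with 479 RPKM in WT and 193 in Kai1-/- PCs. Trp53, the gene of p53, chosen after its values were seen, had 50.8 and 74.1 RPKM. The 4 genes of MCL1 protein turnover had a median of -0.43 with 0 past 2-fold. Huwe1, the ubiquitin ligase known as MULE, had the highest mean with 4.09 and 7.69 RPKM, though in WT Btrc was higher, with 6.64 and 4.85.

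**Figure D4:**
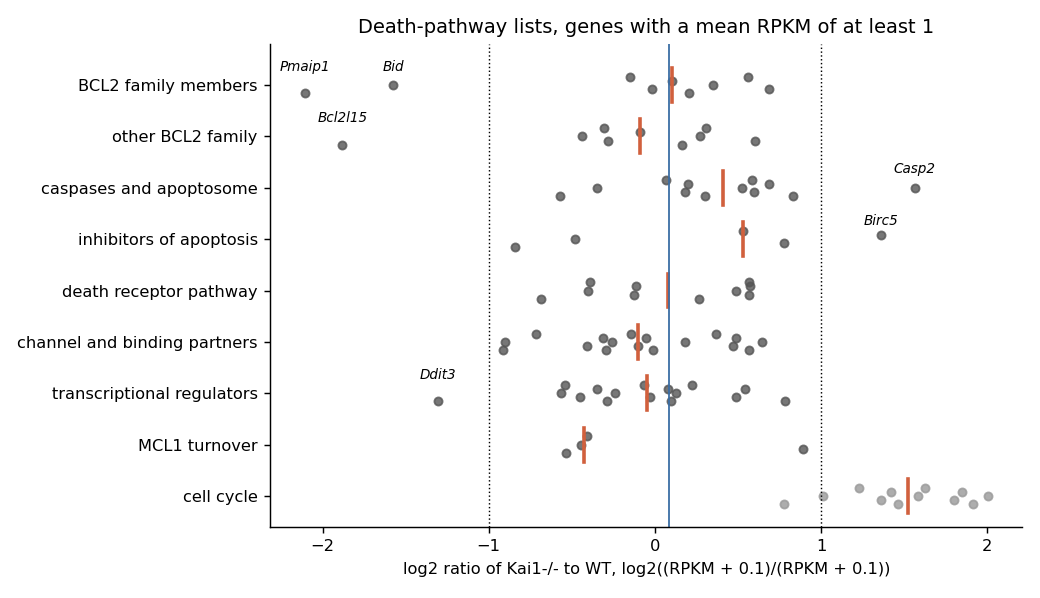
Log2 ratio of Kai1-/- to WT for genes averaging 1 RPKM or more, in the BCL2 family members, the 7 wider lists and the cell cycle list; 1 point per gene, red bars the list medians, the blue line the median of all genes (0.082), dotted lines 2-fold. Genes past 2-fold outside the cell cycle list are named: Pmaip1, Bid, Bcl2l15 and Ddit3 on the left, Casp2 and Birc5 on the right.

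Marker genes of several cell types were also lower in Kai1-/- PCs, beside Pmaip1 and Bid, where 4522 of the 10068 genes that passed the filter, and 7643 of all 20211 symbols, had lower values. Of 8 macrophage markers, 5 were lower and 1, Itgam, was higher in Kai1-/- PCs, and their summed RPKM was 16.4 in WT and 4.23 in Kai1-/- PCs. Most of these sums came from Csf1r, at 11.7 and 2.66, and Lyz2, at 3.44 and 1.09. Cd68 was at 1.17 and 0.464. Near 0 were Ptprc, at 0.0407 and 0.00697, Mrc1, at 0.0330 and 0, and Itgam, at 3.54e-07 and 0.00268. Emr1 and Fcgr1 were listed at 0 in both. Of 8 endothelial markers, 7 were lower and all 8 were listed at 0 in Kai1-/- PCs, and their sum in WT was 1.30. Of 10 mural markers, 9 were lower, with sums of 4646 and 2977, and of 8 fibroblast markers 6 were lower, with sums of 3506 and 1970. The part of these differences in the values of Pmaip1 and Bid was not tested.

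The 10 genes were followed under other ways of processing. Pmaip1 and Bid were more than 2-fold lower under each of the 9 other pseudocounts, scalings and length corrections. In the same settings the log2 ratio of Bcl2l1 stayed below 0, from -0.65 to -0.15, and those of Bbc3 and Bad above 0, from 0.21 to 0.73 and from 0.059 to 0.56. Bcl2l11 stayed above 0 in its 8 settings, from 0.32 to 0.87. Bcl2, Mcl1, Bax and Bak1 changed sign in at least 1 setting.

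**Figure D5:**
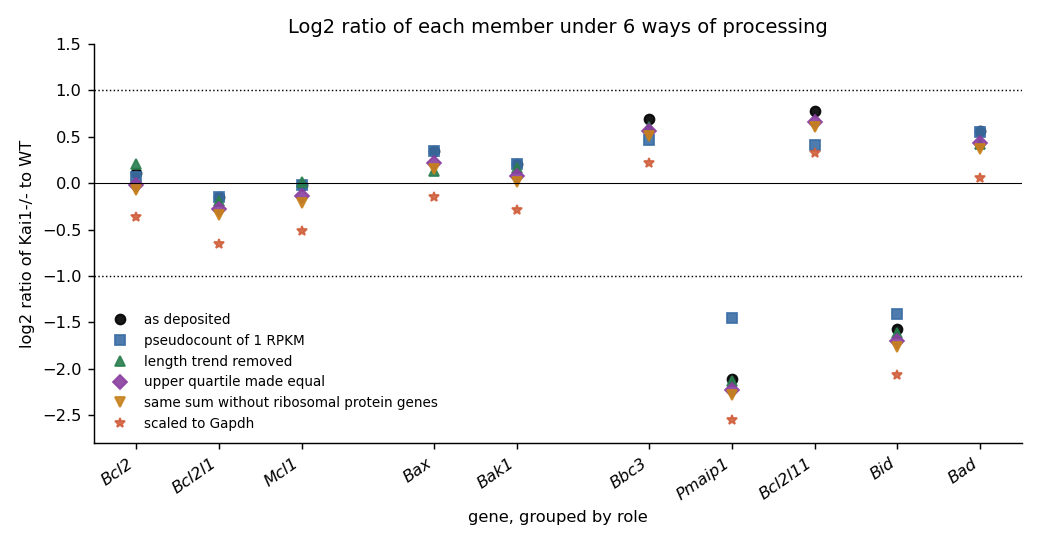
Log2 ratio of Kai1-/- to WT of each of the 10 genes, grouped by role, as deposited and under 5 other ways of processing (1 symbol each; dotted lines 2-fold). Pmaip1 and Bid stay below the lower 2-fold line throughout, whereas Bcl2, Mcl1, Bax and Bak1 lie on both sides of 0.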

How the data were processed

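RNA of 1 WT and 1 Kai1-/- culture of aortic PCs was sequenced. Per the submitters' notes, reads were aligned to mm9 with TopHat2 2.0.9 and Bowtie and measured with Cufflinks. The authors deposited 1 RPKM value per RefSeq gene and library, and read depth and strand were not given in the sources used here. Rows with no symbol (38) were dropped, and symbols on several rows (153, no member among them) were averaged. Log2 ratios used a pseudocount of 0.1 RPKM, which understates differences of low genes, and folds were ratios of RPKM without it. Lists were described by counts and medians, with no test. The members and lists were chosen with earlier results of these data known.

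Depth was estimated from genes with 1 annotated transcript of over 800 bases, by fitting low RPKM values, multiplied by transcript length less a fragment length of 200 bases, to whole reads. The distance to a whole read was under 0.15 for 80.8% of low values in WT and 78.2% in Kai1-/- PCs. Reads of a gene are approximate and rest on its longest GENCODE M1 transcript. Exact 95% Clopper-Pearson intervals were used for ratios, Poisson intervals for levels, and intervals of shares and of ratios between genes were approximate. The fit and the 2-fold count were tested on simulated libraries, drawn with counting error only and with the lengths that the fit assumes. Such libraries do not test variation between cultures or errors in transcript length. Genes named outside the family were those past 2-fold and the one with the highest mean RPKM of each list, besides overlapping genes, markers and genes chosen after their values were seen. Alternatives were other pseudocounts, scalings, filters and removal of a lowess trend on transcript length (fraction 0.3). Tools were Biopython 1.88, matplotlib 3.10.9, statsmodels 0.14.6, scipy 1.17.1, pandas 2.3.3, numpy 2.4.6 and Python 3.11.15.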

Additional observations from a re-analysis of the deposited data

How the results depend on the processing

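Of 89 recomputed log2 ratios of the 10 genes, 53 moved by less than the counting interval and 36 by more. None crossed the 2-fold line, and 9 changed sign, all of Bcl2, Mcl1, Bax or Bak1. The use of no pseudocount was chosen after seeing the data, and the length correction gave no value for Bcl2l11, which the filter left out. Scaled to Gapdh, to the same RPKM sum, and to that sum without ribosomal protein genes, the median of all genes went to -0.41, -0.39 and -0.11. The family median was -0.36 and -0.35 in the first and second of these. With the filter raised to a mean of 5 RPKM, 1 family gene was more than 2-fold lower, since Pmaip1 was not counted. Without Mcl1 the survival share was 25.1% in WT and 19.7% in Kai1-/- PCs, and without Bax 44.0% and 37.7%.

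For the wider lists, the median was -0.51 scaled to Gapdh, -0.50 at the same sum, -0.21 at the same sum without ribosomal protein genes, -0.14 with equal upper quartiles, -0.093 with the median of all genes at 0 and 0.073 under the stricter filter. In the same order, the genes more than 2-fold lower numbered 11, 9, 5, 4, 2 and 1. Those more than 2-fold higher numbered 1 scaled to Gapdh, at the same sum and under the stricter filter, and 4 with no filter. The share of all genes past 2-fold in these settings is not given here, so that these counts cannot be set against a background. Birc5 was the gene no longer past 2-fold scaled to Gapdh and at the same sum, with log2 ratios of 0.86 and 0.88. These shifts follow from the scaling, which moves nearly all genes alike, and from the number of genes counted. No paired analysis was possible because there is only 1 library of each genotype. Depth limits Pmaip1, with about 59 reads in Kai1-/- PCs, and Bbc3, with about 68 in WT.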

Other observations

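Genes outside the family that act in the same steps were read for their values alone, and were chosen after these were seen. Of factors that leave mitochondria when the pores open, Cycs, which encodes cytochrome c, had 22.6 RPKM in WT and 36.4 in Kai1-/- PCs. Diablo had 7.29 and 13.1, Aifm1 10.3 and 15.7, and Endog 16.0 and 16.8. None of these was past 2-fold. The 14-3-3 genes did not share a direction, with Ywhag at 106 and 64.8 and Ywhaq at 121 and 189. Below the filter on mean RPKM, the BH3-only gene Bik was at 0.0456 in WT and 0.455 in Kai1-/- PCs, from only about 1 and 9 reads. The BH3-only gene Bmf, also below the filter, went the other way, at 0.0457 and 0.0253, from about 6 and 3 reads. Bcl2l14 was listed at 0 in WT and had 0.297 in Kai1-/- PCs.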
